A study of Mus musculus with 9 samples.

Results

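Foxr2, a forkhead transcription factor gene, and the MYC family genes Mycn, Myc and Mycl were followed across mouse brain tumour cells and astroglia. Members were the rows of the normalized read table whose RefSeq accession belongs to 1 of these 4 genes. A row was found for 3 of the 4, Foxr2, Mycn and Mycl, among 14771 named genes, and Myc is not analysed here. RNA came from 9 libraries in 3 groups of 3. The astroglia (AG) were brain cells of strain C57BL/6 whose genotype is given as p53 DN, Nf1 shRNA, the second being a short hairpin RNA against Nf1. The tumour cells came from the brainstem (BS) or the olfactory bulb (OB) of mice of the 129;C57BL/6 mix, and both carried Foxr2 overexpression and p53 cko. A p53 alteration is thus shared by all 3 groups, under a different name in AG. Ages, the promoter or Cre behind the alleles and any culture history were not stated in the labels. Strain, genotype and tissue cannot be told apart in any comparison with AG. Whether the 3 libraries of a group stem from different animals is not stated, so p-values measure only a spread between samples that may be technical.

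MYC, MYCN and MYCL are basic helix-loop-helix leucine zipper proteins that bind E-boxes in DNA as dimers with MAX and activate genes of growth, ribosome production and nucleotide synthesis. MXD proteins, MNT and MGA compete for MAX and mostly repress. MYC proteins are short-lived and are marked for degradation by ubiquitin ligases such as FBXW7. FOXR2 protein is known to bind MYC proteins and make them more stable, a step that RNA levels do not measure. MYCN is the family member best known from neural progenitors and from embryonal tumours of the nervous system.

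The libraries held 11300273 to 19868282 reads in the table. Values below are normalized reads, that is, reads divided by 1 size factor per library, and a change is a difference of mean log2(normalized reads + 1) and is smaller than the true change where values are low. A gene was called where limma gave an adjusted p under 0.05 (Benjamini-Hochberg over 10576 genes tested). A test needed 10 normalized reads in 3 libraries. Foxr2, Mycn, Bcat1 and Ubtf reached that level only through tumour libraries, Lin28b only through OB, and Igf2bp1, Klf8, Vsnl1 and Gm19510 only through AG, so against AG each could be called in 1 direction only. All 9 were also called in the mean of BS and OB against AG in a fit with no such filter. Genes with several annotated transcripts had low values in this table, with a median of 10.1 against 258.8 for genes with 1 RefSeq transcript, so their values are compared only between libraries. Of 8 astrocyte markers 7 were in the table. Their sum was in AG 5746 to 6288, in BS 14430.2 to 27617 and in OB 6723 to 29704. Gja1 was at 4961 to 5396 in AG and 1.11 to 2879 in the tumour libraries, and S100b at 25.0 to 27.2 and 5.87 to 6616. Gfap, Aqp4, Aldh1l1 and Aldoc were all under 10 in AG, but each has several annotated transcripts, so this is not read as absence. Summed mesenchymal markers (6 of 6 in the table) were in AG at 88539 to 102354, in BS at 16.8 to 47.3 and in OB at 14.4 to 190.2. Summed oligodendrocyte precursor markers (6 of 6) were in AG at 17.4 to 20.01, in BS at 33881 to 80009.8 and in OB at 40344 to 72013, and Olig2 was at 0 in all 3 AG libraries. Neuron markers (5 of 6) summed in AG to 695 to 796, in BS to 1076 to 5208 and in OB to 2222 to 4566. Endothelial markers (4 of 5) summed to 921 to 1035, 28.6 to 242 and 11.1 to 212 in the same order, and microglia markers (3 of 7) to 59.2 to 71.0, 32.0 to 103 and 68.5 to 81.8. OB_257 stood apart from the other tumour libraries, with Slc1a3 at 88.4 against 11447 to 25665 and Olig2 at 2352 against 13399.5 to 30963. Other markers went the other way there: OB_257 had the highest Sox10 of all libraries (30528 against 0.834 to 13223) and the highest S100b, and only OB_295 had more Gpr17 (16883 against 5076). The part of these differences in the results below was not tested. In bulk RNA, fewer cells of a type and less RNA per cell cannot be told apart.

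Foxr2, the gene named in the tumour genotype, was nearly absent from AG and abundant in all 6 tumour libraries. AG_1 had 0 reads, AG_2 had 1 and AG_3 had 0, where 0 reads allow a normalized value of up to 2.50 in AG_1 and 3.27 in AG_3. In BS it stood at 12567 in BS_287, 7377 in BS_295 and 8634 in BS_296. In OB it stood at 4505 in OB_257, 6814 in OB_287 and 5969.8 in OB_295. No tumour library overlapped AG, and the levels match the genotype labels. Foxr2 was higher than in AG by 12.85 ± 0.34 (SE) in BS and by 12.14 ± 0.34 in OB on the log2 scale (limma adjusted p = 6.26e-07 for both). In BS against AG 35.1% of all genes were called (15.6% higher and 19.5% lower). In OB against AG 34.9% were called (16% higher and 19% lower). A change from so few AG reads depends on the pseudocount.

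The 3 BS libraries lay above the 3 OB libraries in Foxr2 without overlap. The difference of OB from BS was -0.71 ± 0.34 (SE), with a 95% interval of -1.49 to 0.07, and missed the threshold (limma adjusted p = 0.549). In OB against BS limma called 0 of 10576 genes (0%), with 1019 at an unadjusted p under 0.05, while edgeR called 0 and DESeq2 233. The limma fit of 9 libraries takes its spread partly from AG, also in the SEs of OB against BS. A limma fit of BS and OB alone called 0 of 9767 genes, with 448 at an unadjusted p under 0.05. In that fit Foxr2 had a limma adjusted p = 0.957. Per kilobase of its 3210-base transcript, Foxr2 exceeded 98.5% of 9581 genes with 1 RefSeq transcript in BS_287 and 92.8% in OB_257. Whether the overexpressed RNA has the length of the annotated transcript was not tested. Between tumour libraries Foxr2 was no more variable than most genes, with an SD of 0.50 on the log2 scale against a median of 0.53 over all genes tested.

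**Figure D1:**
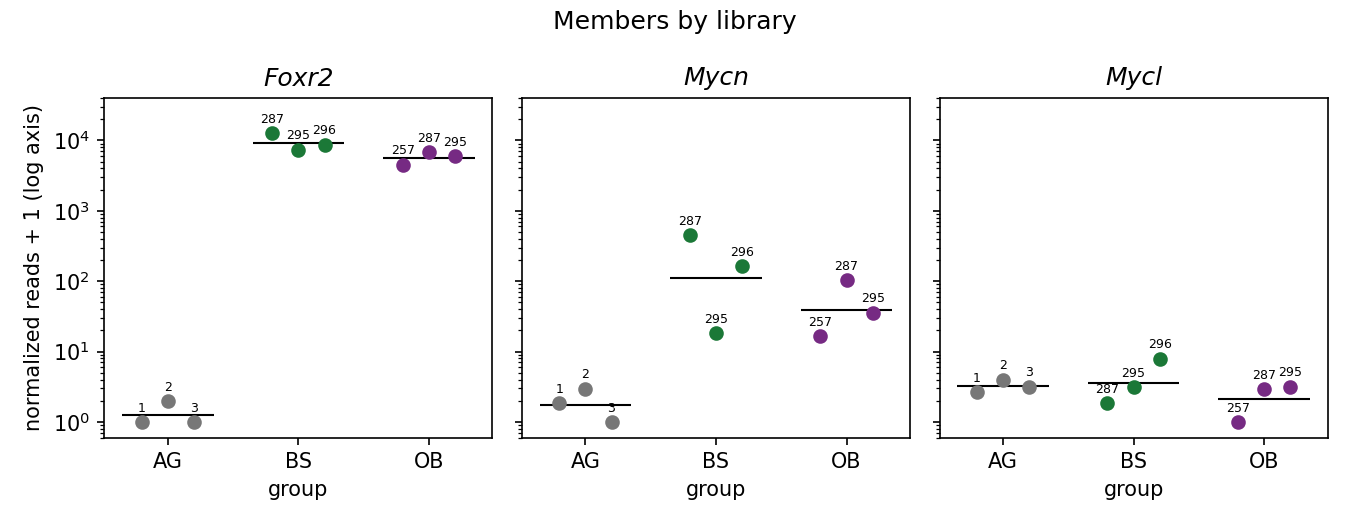
Normalized reads + 1 (log axis) of Foxr2, Mycn and Mycl in each of 9 libraries (points, with the number in the library's title) by group, with the mean of the log values as a line. Foxr2 lies at 4505 to 12567 in the tumour libraries, Mycn at 15.5 to 449, and Mycl at 0 to 6.90 in all 9.

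Mycn, the MYC gene of neural progenitors, was nearly absent from AG and detected in every tumour library, over a wide range. AG_1 had 1 read, AG_2 had 2 and AG_3 had 0. In BS it stood at 449 in BS_287, 17.1 in BS_295 and 163 in BS_296. In OB it stood at 15.5 in OB_257, 103 in OB_287 and 34.8 in OB_295. No tumour library overlapped AG. BS and OB did overlap: the lowest library of each site, BS_295 and OB_257, was at a similar level, and the highest of each, BS_287 and OB_287, bore the same number in the title. Mycn rose by 5.97 ± 1.16 (SE) in BS against AG (limma adjusted p = 0.00481). It rose by 4.48 ± 1.16 in OB against AG (limma adjusted p = 0.0172). As a ratio of reads, Mycn was 238 times the AG level in BS (exact 95% interval 81.0 to 1155) and 55.9 times in OB (18.8 to 274), intervals that cover counting error only.

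The call in OB rested on few libraries. It was lost with a pseudocount of 5 (limma adjusted p = 0.0558), without AG_1 (0.0568), without AG_3 (0.07) and without OB_287 (0.053). Without OB_257 Mycn was higher in OB by 5.11 (limma adjusted p = 0.0163). Between OB and BS, Mycn differed by -1.48 ± 1.16, with an interval of -4.13 to 1.17 that leaves either direction possible (limma adjusted p = 0.712).

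Mycn varied more between tumour libraries than Foxr2. Its SD over the 6 was 1.90 on the log2 scale, above that of 91.8% of the genes tested, and its highest value was 29.0 times its lowest, against 2.79 times for Foxr2. Per kilobase of its 2674-base transcript, Mycn stood at 168 in BS_287, above 59.3% of the genes ranked, and at 5.79 in OB_257, above 28.7%. On that scale Foxr2 exceeded Mycn in each tumour library, by 23.3 times in BS_287, 360.0 in BS_295 and 44.2 in BS_296. In OB the excess was 243 times in OB_257, 55.2 in OB_287 and 143 in OB_295. The excess was smallest in BS_287, where Mycn was highest.

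The promoter window of Mycn is shown because E2F sites before this gene are well known. It runs from 250 bases before to 50 after the start site, in RefSeq's build GRCm38.p6, with the capitals marking matches to TTTGGCGC or TTTCGCGC on either strand.
Mycn promoter, chr12:12941787-12942086, minus strand: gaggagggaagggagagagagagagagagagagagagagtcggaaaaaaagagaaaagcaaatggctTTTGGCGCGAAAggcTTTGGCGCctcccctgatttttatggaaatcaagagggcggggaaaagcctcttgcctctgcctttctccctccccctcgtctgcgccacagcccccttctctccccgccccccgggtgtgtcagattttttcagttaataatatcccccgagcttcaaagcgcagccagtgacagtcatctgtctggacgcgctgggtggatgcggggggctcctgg

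The Mycn window held 3 such matches, whose first bases lay at -183, -179 and -168 from the start site, the first 2 overlapping. A match was present in 267 of 32851 windows of this kind (0.813%) and in 1.55% of those of genes tested. The E-box CACGTG was in none of the Mycn, Mycl and Foxr2 windows. A match describes letters and does not show that a factor bound there. Among the E2F genes, E2f2 rose from 18.5 to 25.0 in AG to between 49.99 and 90.7 in the tumour libraries (limma adjusted p = 0.00311 for the mean of BS and OB against AG). E2f1 stood at 30.5 to 41.7 in AG and 5.91 to 44.7 in the tumour libraries and did not pass (limma adjusted p = 0.166). Both have 2 annotated transcripts.

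Mycl was at the edge of detection in all 9 libraries. It had 7 reads in AG, 10 in BS and 4 in OB, over 3 libraries each. Its normalized values were 1.67 in AG_1, 2.96 in AG_2 and 2.18 in AG_3. They were 0.839 in BS_287, 2.13 in BS_295 and 6.90 in BS_296, and 0 in OB_257, 1.90 in OB_287 and 2.17 in OB_295, where 0 reads allow up to 3.32. The 3 groups overlapped. The ratio of reads was 1.42 in BS over AG (exact 95% interval 0.489 to 4.40) and 0.622 in OB over AG (0.134 to 2.45), so no difference was detectable at this depth. Mycl did not reach the 10 normalized reads in 3 libraries needed for a test. It has 2 annotated transcripts, and genes of that kind had low values here, so its level is not read as low expression.

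Within the tumours Mycn was higher where Foxr2 was higher, apart from BS_295. Over 6 libraries Pearson's r of the log2 values was 0.85 (two-sided exact permutation p = 0.0306, adjusted over 2 relations 0.0611). Spearman's rho was 0.83 (two-sided exact permutation p = 0.0583, adjusted 0.117), so neither passed after adjustment. Without BS_287 and OB_257, the libraries farthest from the median of Foxr2, r was 0.47 over 4 libraries, so the relation rests on those libraries. BS_295 had Foxr2 at 7377 but Mycn at 17.1, and without it r was 0.98 (exact permutation p adjusted over 2 relations 0.0333). BS_295 was singled out because its values depart from the others, so that r and p are no test of the relation. Within a site, over 3 libraries each, r was 0.90 in BS and 0.96 in OB. For Mycl, r with Foxr2 was 0.35 (exact permutation p = 0.507, adjusted 0.507) and rho was 0.26 (exact permutation p = 0.658, adjusted 0.658). Without the same libraries r for Mycl was 0.81.

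**Figure D2:**
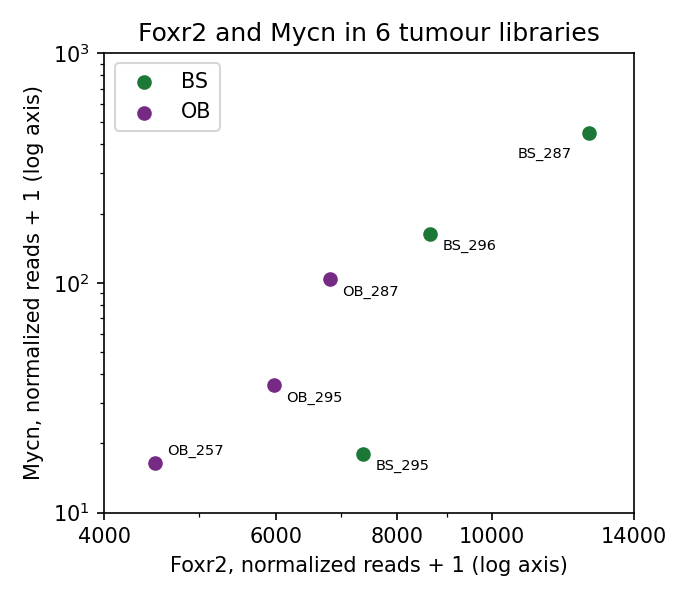
Foxr2 (x axis) against Mycn (y axis), both as normalized reads + 1 on log axes, in the 3 BS and 3 OB libraries. BS_287 is highest in both genes and OB_257 lowest in both, while BS_295 lies below the other libraries of similar Foxr2.

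Few genes of the MYC, MAX and MLX network were called: 12 were listed, 10 were in the table and 9 were tested. In the mean of BS and OB against AG 0 rose and 2 fell, with a median change of 0.34, where 42.1% of all genes were called (19.5% higher and 22.6% lower) and the median of all genes was -0.02. In OB against AG the network counts were 0 higher and 1 lower, where 34.9% of all genes were called (16% higher and 19% lower). In BS against AG they were 0 higher and 1 lower, where 35.1% of all genes were called (15.6% higher and 19.5% lower). Mga, a MAX partner that represses germline genes, fell from 171 to 200.4 in AG to between 71.7 and 145 in the tumour libraries (-0.91 ± 0.27, limma adjusted p = 0.0262). Mxd3, a MAX dimerization gene of dividing cells, fell from 575 to 838 to between 287.4 and 547 (-0.63 ± 0.19, limma adjusted p = 0.0298). For both genes the AG and tumour libraries did not overlap, but both calls were lost under upper-quartile rescaling and under quantile normalization. Max, the obligate partner, with 4 annotated transcripts, stood in AG at 12.8 to 20.8, in BS at 25.6 to 33.5 and in OB at 14.3 to 25.0 and did not pass (0.57 ± 0.32, limma adjusted p = 0.182). Mnt stood at 1576 to 1844 in AG and 878 to 1755 in the tumour libraries (-0.41 ± 0.21, limma adjusted p = 0.162). Mlxip, which pairs with MLX in sensing glucose, stood at 1412 to 1627 and 1133 to 3483 (0.22 ± 0.23, limma adjusted p = 0.482).

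Bmyc, a rodent gene related to the amino-terminal part of MYC, was singled out after its values were seen. It stood at 80.9 in AG_1, 64.1 in AG_2 and 46.8 in AG_3. In BS it stood at 192 in BS_287, 254 in BS_295 and 327 in BS_296, and in OB at 0 in OB_257, 226 in OB_287 and 262 in OB_295. All tumour libraries but OB_257 were above AG, and OB_257 was below it. Over all 9 libraries Bmyc did not pass (0.65 ± 1.598, limma adjusted p = 0.774). Without OB_257 it was higher in the tumours by 1.97 (limma adjusted p = 0.00088). OB_257 was singled out because its Bmyc value departs from the others, so the p without it is no test of a difference.

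**Figure D3:**
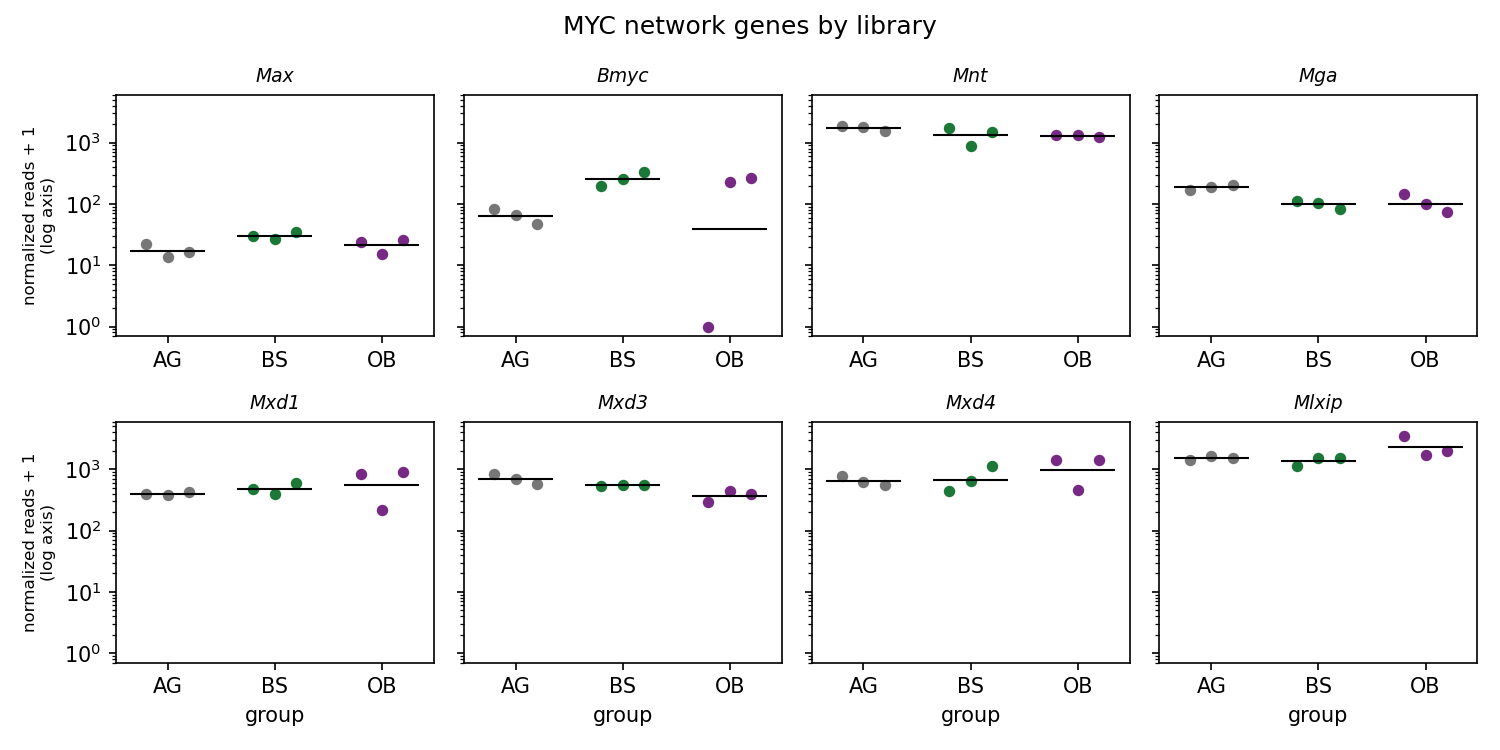
Normalized reads + 1 (log axis) of 8 MYC network genes by library (points) and group, with the mean of the log values as a line. The groups lie close together for most genes, and the single point at the foot of the Bmyc panel is OB_257.

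Of genes of MYC protein turnover, 18 were listed, 13 were in the table and 10 were tested. In the mean of BS and OB against AG 3 rose and 1 fell, with a median change of -0.10. The share called was 40%, against 42.1% of all genes. Huwe1, a large ubiquitin ligase that acts on MYC proteins, fell from 38896 to 42121 in AG to between 14143 and 20271 (-1.14 ± 0.13, limma adjusted p = 0.000257), with no overlap. Fbxw7, the ligase subunit that recognises phosphorylated MYC, rose from 8.71 to 20.8 to between 19.9 and 48.3 (1.204 ± 0.37, limma adjusted p = 0.0294), with OB_257 inside the AG range. Skp2, a subunit of another ligase, rose from 15.0 to 18.7 to between 26.5 and 64.0 (1.34 ± 0.35, limma adjusted p = 0.0154). Fbxw7 and Skp2 have several transcripts and low values. Fbxo32, an F-box gene best known from muscle, rose by 2.47 ± 0.81 (limma adjusted p = 0.0382) from 188 to 210.2 to between 156 and 3527. BS_295 lay below AG in Fbxo32, and the call was lost without any 1 of the 3 OB or 3 AG libraries. Usp7, a deubiquitinase, stood at 6723 to 7479 in AG and 4079 to 7172 in the tumour libraries, and Plk1, a mitotic kinase, at 3783 to 4551 and 1762 to 4482, and neither passed (limma adjusted p = 0.175 and 0.394).

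Of MYC cofactors, 14 were listed, 12 were in the table and 12 were tested. In the mean of BS and OB against AG 4 rose and 1 fell, with a median change of 0.31. The share called was 41.7%, against 42.1% of all genes. Actl6a, an actin-like subunit of chromatin remodelling complexes, rose from 1992 to 2057 in AG to between 3655 and 9571, by 1.29 ± 0.32 (limma adjusted p = 0.0118). Ruvbl2, an ATPase of such complexes, rose from 2538 to 3248 to between 3774 and 5780.3 (0.65 ± 0.18, limma adjusted p = 0.0175). Its partner Ruvbl1 fell from 1179 to 1275 to between 683 and 1047 (-0.53 ± 0.14, limma adjusted p = 0.015), a call lost under both rescalings. In both genes the tumour libraries did not overlap AG. Kat5, an acetyltransferase, and Zbtb17, the MYC partner in repression also called MIZ1, rose by 1.01 ± 0.34 and 0.44 ± 0.15 (limma adjusted p = 0.0439 and 0.0474). Trrap, a scaffold that MYC recruits, stood at 8431 to 8606 in AG and 6939 to 9488 in the tumour libraries (-0.05 ± 0.13, limma adjusted p = 0.801). Hcfc1 stood at 17197 to 18314 and 9861 to 18595 (-0.34 ± 0.19, limma adjusted p = 0.185).

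Of regulators of MYC family mRNAs, 12 were listed, 7 were in the table and 6 were tested. In the mean of BS and OB against AG 1 rose and 2 fell, with a median change of 0.83. The share called was 50%, against 42.1% of all genes. Igf2bp1, an RNA-binding protein known to protect Myc mRNA, fell from 68.4 to 89.3 in AG to between 0 and 0.985 (-5.86 ± 0.38, limma adjusted p = 9.84e-06, and 1.32e-05 with no filter). It was below the level for a test with any 1 AG library left out. Foxm1, a forkhead factor of dividing cells, fell from 8170.4 to 8957 to between 2688 and 5923 (-1.198 ± 0.26, limma adjusted p = 0.00641). Lin28b, which blocks let-7 microRNAs, stood at 0 to 1.97 in AG and at 0 to 8.87 in BS. In OB it stood at 244 in OB_257, 62.8 in OB_287 and 46.7 in OB_295. The OB libraries were thus above all others. In OB against AG Lin28b was called higher (5.51 ± 0.95, limma adjusted p = 0.0025), and BS against AG did not pass (limma adjusted p = 0.548). With no filter the mean of BS and OB against AG had a limma adjusted p = 0.017. The difference of OB from BS itself, 4.71 ± 0.95, did not pass either (limma adjusted p = 0.176). With any 1 OB library left out Lin28b was below the level for a test, and without AG_3 the call for the mean of BS and OB was lost (limma adjusted p = 0.0821).

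Gli2, a Hedgehog effector gene, belongs to the same list because Hedgehog signalling is known to raise Mycn. It stood at 54.2 to 57.5 in AG. In BS it stood at 2758 in BS_287, 260.3 in BS_295 and 789 in BS_296, and in OB at 0 in OB_257, 1274 in OB_287 and 259 in OB_295. OB_257 had no Gli2 reads, and the other tumour libraries were all above AG. Gli2 did not pass over all libraries (2.07 ± 1.96, limma adjusted p = 0.43) and was higher without OB_257, by 3.60 (limma adjusted p = 0.00761). OB_257 was singled out because its Gli2 value departs from the others, so the p without it is no test of a difference. Gli1, of the same list, stood at 11.8 to 20.7 in AG. In BS it stood at 68.8 in BS_287, 50.1 in BS_295 and 659 in BS_296. In OB it stood at 7.74 to 24.7, overlapping AG. Gli1 was called higher in BS against AG (2.99 ± 0.92, limma adjusted p = 0.0345). It did not pass in OB against AG (limma adjusted p = 0.846) or in the mean of BS and OB against AG (0.202). Gli1 was highest in BS_296, and Mycn in BS_287. Elavl1, an RNA-binding protein gene, stood at 4784 to 4909 in AG and 5033 to 6968 in the tumour libraries and did not pass (limma adjusted p = 0.0935).

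Genes that MYC proteins are known to activate moved in both directions or did not pass. Of ribosome biogenesis targets, 23 were listed, 22 were in the table and 21 were tested. Of these 2 rose and 4 fell in the mean of BS and OB against AG, with a median change of -0.01. The share called was 28.6%, against 42.1% of all genes. Ubtf and Polr1b, both of RNA polymerase I transcription, rose, Ubtf by 1.41 ± 0.44 (limma adjusted p = 0.0303) at low values and Polr1b from 1768 to 1907 in AG to between 2106 and 2608 (0.38 ± 0.12, limma adjusted p = 0.0332). Utp20, a ribosomal RNA processing gene, fell from 5391 to 5854 to between 1805 and 4179.7 (-0.96 ± 0.25, limma adjusted p = 0.0142). Rrp9 and Nop2 fell (-0.52 ± 0.17 and -0.50 ± 0.16, limma adjusted p = 0.0345 and 0.0359). Both calls were lost under upper-quartile rescaling, under quantile normalization and with edgeR. Ncl, the gene of nucleolin, fell from 50108 to 50791 to between 20872 and 40942 (-0.64 ± 0.22, limma adjusted p = 0.0474), but the call was lost with edgeR and with DESeq2, and the change was 0.07 under quantile normalization. Mybbp1a and Ddx21 were the most abundant genes that did not pass, at 11025 to 18202 and 10873 to 15013 in the tumour libraries and 12434 to 12944 and 10243 to 10474 in AG. Under upper-quartile rescaling, which moved the median of all genes from -0.02 to 0.14, 4 of these targets rose and 1 fell. Over all genes 2467 rose and 2017 fell under that rescaling.

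Of nucleotide, one-carbon and polyamine targets, 23 were listed, 17 were in the table and 15 were tested. Of these 3 rose and 1 fell, with a median change of 0.15. The share called was 26.7%, against 42.1% of all genes. Shmt1, cytosolic serine hydroxymethyltransferase, rose from 1553 to 1619 in AG to between 2308 and 4903, by 1.09 ± 0.18 (limma adjusted p = 0.00153). Cad, which starts pyrimidine synthesis, rose from 101 to 132 to between 174 and 299.5 (0.86 ± 0.24, limma adjusted p = 0.0193), and Dhodh, a later enzyme of that pathway, from 499.8 to 574 to between 580.2 and 1237 (0.71 ± 0.18, limma adjusted p = 0.0135). Atic, an enzyme of purine synthesis, fell from 6049 to 6138 to between 3221 and 4917 (-0.53 ± 0.15, limma adjusted p = 0.0192), a call lost under both rescalings. Odc1, the polyamine enzyme and a classical MYC target, stood at 2022 to 2195 in AG and 503 to 1725 in the tumour libraries, all below AG, and did not pass (-0.87 ± 0.38, limma adjusted p = 0.0975). Nme1 and Mthfd1, the most abundant genes of the list that did not pass, had differences of 0.02 ± 0.16 and -0.19 ± 0.23.

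Of growth and cell cycle targets, 21 were listed, 21 were in the table and 15 were tested. Of these 5 rose and 1 fell, with a median change of 0.21. The share called was 40%, against 42.1% of all genes. Among the 7 tested genes of this list with 1 RefSeq transcript, 2 rose and 0 fell, a subset without Ccnd1. In the same subset 1 of 16 ribosome biogenesis targets rose and 4 fell. Of 9 nucleotide, one-carbon and polyamine targets 2 rose and 1 fell, and of 8 genes repressed by MYC 0 and 4. The counts were 0 and 1 of 5 network genes, 1 and 1 of 6 turnover genes, 2 and 1 of 8 cofactors and 1 and 2 of 6 regulators. The share over all such genes was not taken. Bcat1, a branched-chain amino acid transaminase, rose from 7.50 to 9.86 in AG to between 39.1 and 79.6, by 2.35 ± 0.32 (limma adjusted p = 0.000548). Slc1a5, a glutamine transporter, rose from 735 to 785 to between 1148 and 3809.7 (1.49 ± 0.35, limma adjusted p = 0.00921). E2f2, described above, E2f3 and Cdc25a, a phosphatase that activates cyclin-dependent kinases, were the others that rose, E2f3 by 1.36 ± 0.37 and Cdc25a by 0.53 ± 0.15 (limma adjusted p = 0.0192 and 0.0231). Ccnd1, cyclin D1, fell, with AG at 41982 to 45356, BS at 21959.8 to 31025 and OB at 4589 to 13693 (-1.53 ± 0.31, limma adjusted p = 0.0044). All OB libraries were below all BS libraries in Ccnd1, but OB against BS did not pass (-1.69 ± 0.35, limma adjusted p = 0.176). Ccnd2, cyclin D2, had no reads in OB_257 against 13308 to 22508 in the other tumour libraries and 21392 to 21980.4 in AG. It did not pass over all libraries (limma adjusted p = 0.46) and differed by -0.41 without OB_257 (limma adjusted p = 0.0338). OB_257 was singled out because its Ccnd2 value departs from the others, so the p without it is no test of a difference. Slc7a5, an amino acid transporter, stood at 4383 to 4899 in AG and 4981 to 19106 in the tumour libraries and did not pass (limma adjusted p = 0.0726).

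As genes repressed by MYC 14 were listed, 11 were in the table and 10 were tested. Of these 0 rose and 5 fell, with a median change of -1.46, and the counts were 0 and 5 under upper-quartile rescaling as well. The share called was 50%, against 42.1% of all genes (22.6% of all genes lower). Cdkn2b, an inhibitor of CDK4 and CDK6, fell, with AG at 2412 to 2826, BS at 59.7 to 114 and OB at 1.11 to 183 (-5.56 ± 1.27, limma adjusted p = 0.00844). Gadd45b, a stress gene, fell from 1211 to 1469 to between 48.5 and 168 (-4.12 ± 0.36, limma adjusted p = 4.96e-05). Tgm2, a transglutaminase, fell, with AG at 1943 to 2156, BS at 26.6 to 85.3 and OB at 272 to 1029 (-3.63 ± 0.49, limma adjusted p = 0.00057). Klf6, a zinc-finger factor, and Cdkn2a, the locus of p16 and p19Arf, fell (-1.74 ± 0.44 and -1.12 ± 0.21, limma adjusted p = 0.0138 and 0.00325). Cdkn2a is not an established case of repression by MYC, so its fall is not read that way. In these 5 genes every tumour library was below every AG library. The summed mesenchymal markers given above were lower in the same libraries. Their part in the result was not tested. Cdkn1b and Btg2, both antiproliferative, stood at 2479 to 2575 and 3310.4 to 3513 in AG and 1391 to 2688 and 483 to 4697 in the tumour libraries and did not pass (limma adjusted p = 0.19 and 0.361).

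Over the 8 lists together 98 genes were tested, of which 18 rose and 17 fell (35.7% called, against 42.1% of all genes), so the share called was not above the background. Without the 4 list genes tested through 1 side only (Bcat1, Igf2bp1, Lin28b and Ubtf), 15 of 94 rose and 16 fell (33%). Under upper-quartile rescaling 25 rose and 10 fell, and under quantile normalization 24 and 10. Calls over all genes shifted the same way, from 2063 higher and 2385 lower in the main fit. They were 2467 higher and 2017 lower under upper-quartile rescaling, and 2270 and 2034 under quantile normalization. The share of calls that were higher was thus 46.4%, 55.0% and 52.7% over all genes, and 51.4%, 71.4% and 70.6% over the lists. The count of 35 fell to 17 without AG_1, 13 without AG_2 and 12 without AG_3, and was 38 without OB_257. Calls over all genes fell as well, from 4448 to 2504, 2504 and 2525 in the same order, and were 4804 without OB_257. Calls that were lost whichever AG library was left out were those of Atic, Cad, Cdc25a, Fbxo32, Kat5, Klf6, Mga, Ncl, Nop2, Polr1b, Rrp9, Ruvbl1, Skp2, Ubtf, Utp20 and Zbtb17. Those of Dhodh, E2f3, Fbxw7 and Ruvbl2 were lost without AG_2 and without AG_3, that of Mxd3 without AG_1 and without AG_2, and that of Actl6a without AG_3. Leaving out 1 tumour library also ended some calls: Fbxo32 without OB_257 or OB_287 or OB_295, Fbxw7 without BS_296, Kat5 without BS_287 or BS_296 or OB_257 or OB_287, Ncl without OB_257 or OB_295, Nop2 without BS_295 or BS_296, Rrp9 without BS_287 or BS_295 or OB_287 or OB_295, Ubtf without OB_287 and Zbtb17 without BS_295 or BS_296 or OB_257 or OB_295. In OB against BS 0 list genes were called, where limma called 0 of all 10576 genes, so that count says nothing about the lists.

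**Figure D4:**
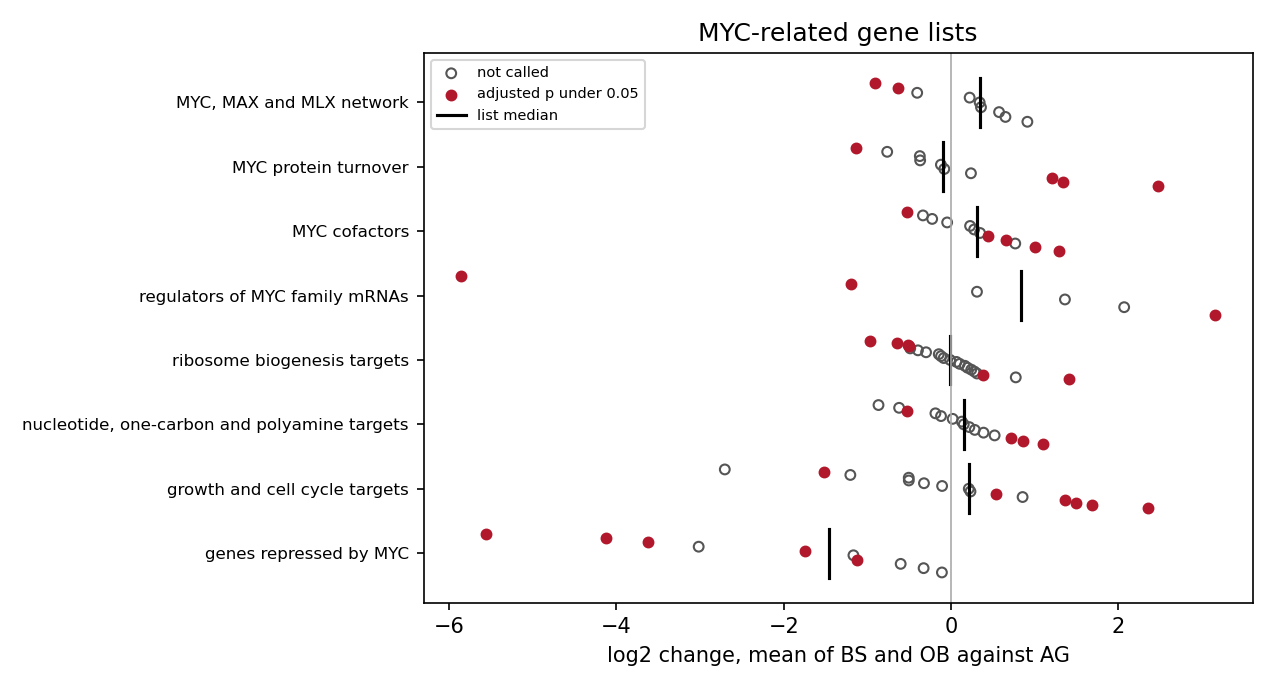
Log2 change of the mean of BS and OB against AG (x axis) for the tested genes of 8 MYC-related lists (rows), 1 point per gene, filled where the limma adjusted p was under 0.05, with the list median as a bar. Medians lie between -0.10 and 0.83 in 7 lists and at -1.46 for genes listed as repressed by MYC.

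The E-box CACGTG, which reads the same on both strands, was counted in the same windows of 300 bases. It was present in 7.15% of 32851 windows and in 9.95% of those of genes tested. It was present in 9 of 28 windows of growth and cell cycle targets, 7 of 25 of nucleotide, one-carbon and polyamine targets and 5 of 25 of ribosome biogenesis targets. Network genes held it in 5 of 15 windows, genes listed as repressed by MYC in 3 of 18 and MYC cofactors in 1 of 15. Genes of MYC protein turnover held it in 2 of 19 windows and regulators of MYC family mRNAs in 2 of 13. Klf6, Utp20 and Gadd45b, which fell, and Kat5, which rose, were among the called genes that held it. The windows of 2 called genes are shown, with the E-box in capitals, because the same letters stand near the start of Lin28b, which was higher in OB, and of Atic, which fell. They come from RefSeq, build GRCm38.p6.
Lin28b promoter, chr10:45470152-45470451, minus strand: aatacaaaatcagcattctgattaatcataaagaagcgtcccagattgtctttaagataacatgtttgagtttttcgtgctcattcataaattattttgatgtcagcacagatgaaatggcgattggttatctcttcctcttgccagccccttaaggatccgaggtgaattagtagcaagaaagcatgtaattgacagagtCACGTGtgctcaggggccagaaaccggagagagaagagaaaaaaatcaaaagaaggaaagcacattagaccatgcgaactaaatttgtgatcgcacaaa
Atic promoter, chr1:71556906-71557205, plus strand: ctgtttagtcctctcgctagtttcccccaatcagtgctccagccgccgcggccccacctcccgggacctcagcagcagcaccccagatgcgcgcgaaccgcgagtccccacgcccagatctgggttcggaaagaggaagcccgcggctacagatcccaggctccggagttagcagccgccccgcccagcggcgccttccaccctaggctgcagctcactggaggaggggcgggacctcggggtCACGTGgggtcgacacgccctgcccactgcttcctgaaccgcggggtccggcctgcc

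The first base of the E-box lay at -49 from the start site in Lin28b and -7 in Atic. Its presence does not show that a MYC protein bound there.

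The chromosomal neighbours of Foxr2 and Mycn did not rise with them to a like extent. The 3 nearest genes of the table on each side of each of the 4 genes were taken from the RefSeq gene order of GRCm38.p6. Of these 24 genes 20 were tested, and 3 rose and 5 fell in the mean of BS and OB against AG (40% called, against 42.1% of all genes), a share near the background. Without Klf8, Vsnl1 and Gm19510, tested through AG only, 3 rose and 2 fell of 17. Beside Foxr2 on chromosome X, 0 of 6 rose. Rragb, a gene of amino acid sensing, stood at 1043 to 1089 in AG and 308 to 1043 in the tumour libraries, and Mageh1 at 1048 to 1125 and 725 to 2169. Klf8, a zinc-finger gene, fell from 10.8 to 19.6 to between 0 and 6.63 (limma adjusted p = 0.00261, and 0.00338 with no filter).

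Beside Mycn on chromosome 12, Ddx1, a helicase gene often amplified with MYCN in neuroblastoma, stood at 7235 to 7598 in AG and 6095 to 9229 in the tumour libraries (-0.01 ± 0.16, limma adjusted p = 0.964). In BS_287, the library with the most Mycn, Ddx1 was at 7537 and Nbas, the next gene, at 1403. For Ddx1 this was inside the range of the other tumour libraries, and for Nbas as well. Copy number and the cause of the Mycn level were not tested. On the other side, the pseudogene Tubb2a-ps2, whose reads may be shared with the tubulin gene it copies, rose from 409 to 509.6 to between 668 and 1765 (limma adjusted p = 0.00681). Vsnl1, a calcium sensor gene, fell from 39.2 to 43.6 to between 0 and 3.26 (limma adjusted p = 0.00013, and 0.000156 with no filter).

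Beside Myc on chromosome 15, the noncoding gene Pvt1 rose from 97.6 to 126 in AG to between 187 and 586, by 1.41 ± 0.36 (limma adjusted p = 0.0135), with no overlap, and was not called without AG_1 or without AG_3. Macroh2a3, a histone variant gene, rose by 1.44 ± 0.39 (limma adjusted p = 0.0187), a call lost without any 1 AG library, and Lratd2 and Gm19510 fell (-1.37 ± 0.30 and -4.20 ± 0.33, limma adjusted p = 0.00692 and 2.62e-05). Gm19510 was at 20.7 to 23.3 in AG and 0 to 1.09 in the tumour libraries, with an adjusted p of 4.38e-05 in the limma fit with no filter. Beside Mycl on chromosome 4, Ppt1, a lysosomal thioesterase gene, fell from 3497 to 3668 to between 1269.9 and 2019 (limma adjusted p = 0.000884). Mfsd2a, a lipid transporter gene, was at 14.4 in OB_257 against 1347 to 3495 in the other tumour libraries and 1362 to 1522 in AG, and did not pass (limma adjusted p = 0.746).

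**Figure D5:**
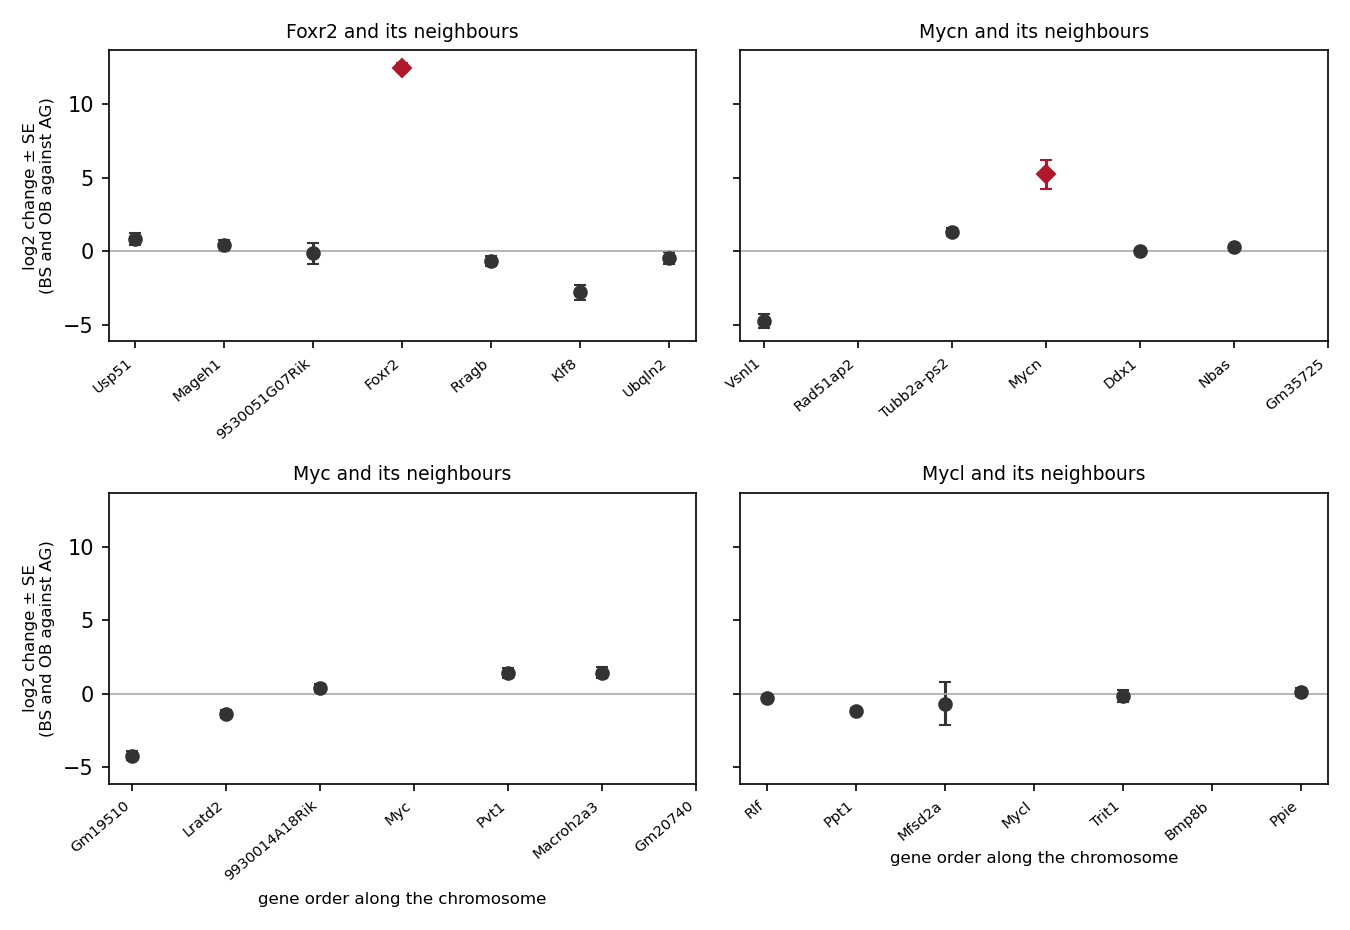
Log2 change ± SE of the mean of BS and OB against AG (y axis) for Foxr2 and Mycn (red diamonds) and for the tested neighbours of each of 4 genes (dark points), in gene order along the chromosome (x axis); genes with no point were not tested. Foxr2 at 12.50 and Mycn at 5.23 stand above all neighbours, which lie between -4.73 and 1.44.

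The genes most like each member were ranked by Pearson's r of the log2 values, as a description over libraries that share their group means and depth. Over 9 libraries Foxr2 was most like Nova2, a neuronal splicing factor gene (r = 0.998), Fxyd6 (0.997) and Soga3 (0.996). Nova2 stood at 22.9 to 35.5 in AG and 1426 to 2186 in the tumour libraries, so the likeness is that of a low AG level and an even tumour level. Mycn was most like Tomm6os (0.986), Tspoap1 (0.981) and Prrt1 (0.977) over 9 libraries. Tspoap1, whose protein acts at presynaptic terminals, stood at 2.18 to 5.91 in AG. In BS it stood at 535 in BS_287, 67.2 in BS_295 and 190.2 in BS_296, and in OB at 55.3 in OB_257, 244 in OB_287 and 137 in OB_295, with BS_287 highest and OB_257 lowest of the tumour libraries, as for Mycn. Over the 6 tumour libraries alone Mycn was most like Pelp1 (0.992), Tnfsf12 (0.990) and Gpr75 (0.988). Pelp1, a coregulator gene, ranged only from 2702 in OB_257 to 4458 in BS_287.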

How the data were processed

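The authors deposited 1 table of signal values, gene-level reads normalized per library, for 9 libraries. Per the labels' protocols, RNA was taken with Sepazol and libraries were made with a stranded TruSeq kit. Per the submitters' processing notes, reads were handled with build mm9 and these tools: DESeq2 1.20.0, Subread 1.6.2 with featureCounts, HISAT2 2.1.0 and bcl2fastq 1.8.4. How multi-mapping or multi-overlapping reads and strand were treated is not given in the sources used here.

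Dividing each column by its step gave whole reads for 100.0% of values (tolerance 0.05), with size factors of 0.905 to 1.2. Of 16260 rows, 16202 were named from RefSeq and 41 from GENCODE, and 17 stayed unnamed. Rows were summed per symbol. Genes with at least 10 normalized reads in 3 libraries were tested with limma 3.58.1 (R 4.3.3) on log2(value + 1), in 1 fit of the 3 groups with a variance trend and Benjamini-Hochberg adjustment. edgeR 4.0.16 and DESeq2 1.42.0 were run on the whole reads. For OB and AG edgeR called 3724 genes and DESeq2 4281, for BS and AG 3679 and 4270, and for OB and BS 0 and 233. Scripts were tested on simulated data. Python 3.11.15, scipy 1.17.1 and matplotlib 3.10.9 served for the rest. Intervals and floors (3 reads) cover counting error only.

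Named genes were, per list, up to 4 called genes with the largest change and up to 2 of the most abundant that were not called, plus 3 neighbours on each side and the 3 genes most like each member. Genes outside that rule (Bmyc, Max, E2f1, E2f3, Cdc25a, Odc1, Polr1b, Nop2, Zbtb17, Cdkn2a, Gli1 and the markers) were named with their values seen. Members and lists were chosen with earlier results of these data known. Alternatives were the pseudocount, filter, scaling, variance model, test, replicate block, a fit of the compared groups only and leaving out each library.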

Additional observations from a re-analysis of the deposited data

How the results depend on the processing

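Foxr2 and Mycn kept their calls against AG under every alternative run, except Mycn in OB against AG, which was 2.92 with a pseudocount of 5 and no longer called. With each library left out in turn, Mycn, OB against AG, ran from 3.79 to 5.11, without a call when AG_1, AG_3 or OB_287 was left out. Calls ran from 2086 to 4123 in OB against AG, 2001 to 4344 in BS against AG, 0 to 67 in OB against BS (the highest without OB_287), 2504 to 4804 in the mean of BS and OB against AG, and 12 to 38 over the lists, the lowest each time without an AG library except in OB against BS. Over the same libraries r of Foxr2 with Mycn across tumour libraries ran from 0.67 to 0.98, and r of Foxr2 with Mycl across tumour libraries from -0.27 to 0.94, the lowest, -0.27, without OB_257.

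OB against BS had 0 calls with limma, 4 with a pseudocount of 0.5, 6 with 5, 3 under quantile normalization, 2 without a trend and 233 with DESeq2, and the cause was not tested. In the titles 2 numbers recur in BS and OB, with a meaning that was not stated. The correlation of deviations was 0.07 and 0.30 in these 2 pairs, the second the highest of 9 pairs of a BS with an OB library. Pairs with unlike numbers came close to or above these values, with 0.29 for BS_296 with OB_295 and 0.22 for BS_287 with OB_257. Whether the numbers pair the libraries is thus not settled. With the replicate block OB against BS had 4 calls, and with the number as a fixed term 1. The block gave 3728, 3730 and 4380 calls in OB, BS and their mean against AG.

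Changes in the mean of BS and OB against AG that turned sign were none of them called after the turn. Under quantile normalization these were Hcfc1 (0.0821), Mthfd1 (0.074), Ncl (0.0714), Trrap (0.297) and Ddx1 (0.309). Under upper-quartile rescaling they were Trrap (0.105), Ddx1 (0.142), 9530051G07Rik (0.0041) and Trit1 (0.0063). With edgeR they were Trrap (0.0111), Ddx1 (0.0539), 9530051G07Rik (0.229) and Mfsd2a (0.361), and with DESeq2 Ddx1 (0.0194), 9530051G07Rik (0.206) and Mfsd2a (0.333). With each library left out in turn, Trrap ran from -0.0934 to 0.0062, Ddx1 from -0.0849 to 0.0647, Nme1 from -0.0469 to 0.0966, 9530051G07Rik from -0.588 to 0.285, Mfsd2a from -1.34 to 0.531, Trit1 from -0.335 to 0.0463 and Bmyc from -0.0381 to 1.97. The cause was not tested. The Mycn to Myc ratio and a test of single rows of a member were not run, since no Myc row was found and each member had 1 row. Depth limits Mycl everywhere and Foxr2 and Mycn in AG.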
